A study of Mus musculus with 4 samples.

Results

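Complement is a cascade of plasma proteases and membrane proteins that tags surfaces for removal and can perforate them. Its classical, lectin and alternative routes meet at C3, whose cleavage releases a signalling fragment and leaves a fragment that binds surfaces. Factor B and factor D drive the alternative route, while regulators such as C1 inhibitor, CD55 and CD59 restrain the cascade on host cells, endothelium included. The genes described are 5 that code for components, C3, C4b, Cfb, Cfd and Masp1, and 3 that code for regulators, Serping1, Cd55 and Cd59a. They were taken as every non-control probe whose accession carries 1 of these symbols in RefSeq, which gave 10 probes for 8 genes, of 41174 probes on the array.

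Endothelial cells, which line vessels and heart chambers, had been isolated from adult mouse hearts, and each of 4 samples of total RNA, labelled with Cy3, was measured on an Agilent 1-colour array of its own. The 2 control samples came from wild type mice, and the 2 samples titled G2-EC-KO carried what the labels call a knock out of Gata2, a transcription factor with zinc fingers that acts in blood and endothelium. Strain, exact age, treatment, the driver of the deletion and whether control mice carried any engineered allele are not given in the sources used here. Nothing in the labels says that replicates came from separate animals, so the p-values rest on a spread among samples that can be technical alone. The comparison, G2-EC-KO minus control, asks which transcripts of these cells differ with the label.

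All values are log2 signals relative to the 75th percentile of the same array, and 0 means a signal equal to that percentile. Between 63.8% and 66.5% of the probes were well above background on each array, the scanner software's call of a signal, and saturation was seen at no spot. With 2 arrays in each group, precision is limited by their number. All 15 endothelial markers of the list used were well above background on all 4 arrays. Gata2 read 1.86 and 2.17 in control and 2.17 and 2.46 in G2-EC-KO at probe A_51_P516625, so it was not lower in the arrays labelled as the knock out (limma, adjusted p = 0.586). Nor was it lower at probe A_52_P233441, at 1.54 and 1.75 in control and 1.72 and 1.91 in G2-EC-KO (limma, adjusted p = 0.653). Where the Gata2 probes lie relative to the deleted part is not given in the sources used here, so this checks nothing about the labels.

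No complement gene passed the threshold of an adjusted p of 0.05 (limma, over 26893 probes). Of the 10 probes, 8 probes of 7 genes were bright enough to be tested, and each of these was well above background on all 4 arrays. Past the threshold were 0 of 8 probes, against 0.00372% of all probes tested. At an unadjusted p under 0.05 there were also 0 of 8, against 9.63% of all probes, or 2590 probes. These counts depended on single arrays. Without G2-EC-KO replicate 1 there were 2 of 8, Cfb and Cd55, against 5594 of all probes, and without G2-EC-KO replicate 2 there was 1, Cfd, against 2184. Without control replicate 1 or 2 there were 0 of 8, against 1336 and 1447. At the brightest probe of each gene, G2-EC-KO read higher for 4 of 7 genes and lower for 3, and the median log2 change was 0.14, beside a median of 0.041 over 13624 genes with a symbol, of which 58.1% were higher. Values of control and G2-EC-KO were apart, with no overlap, at 6 of the 8 probes, against 46.4% of all probes. G2-EC-KO was the higher group at 4 of them, against 23.8% of all probes, and the lower at 2, against 22.6%. Both Cd59a probes are among the 4, so these are not separate genes. In RNA of a cell preparation, fewer cells of a type and less RNA per cell cannot be told apart.

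**Figure D1:**
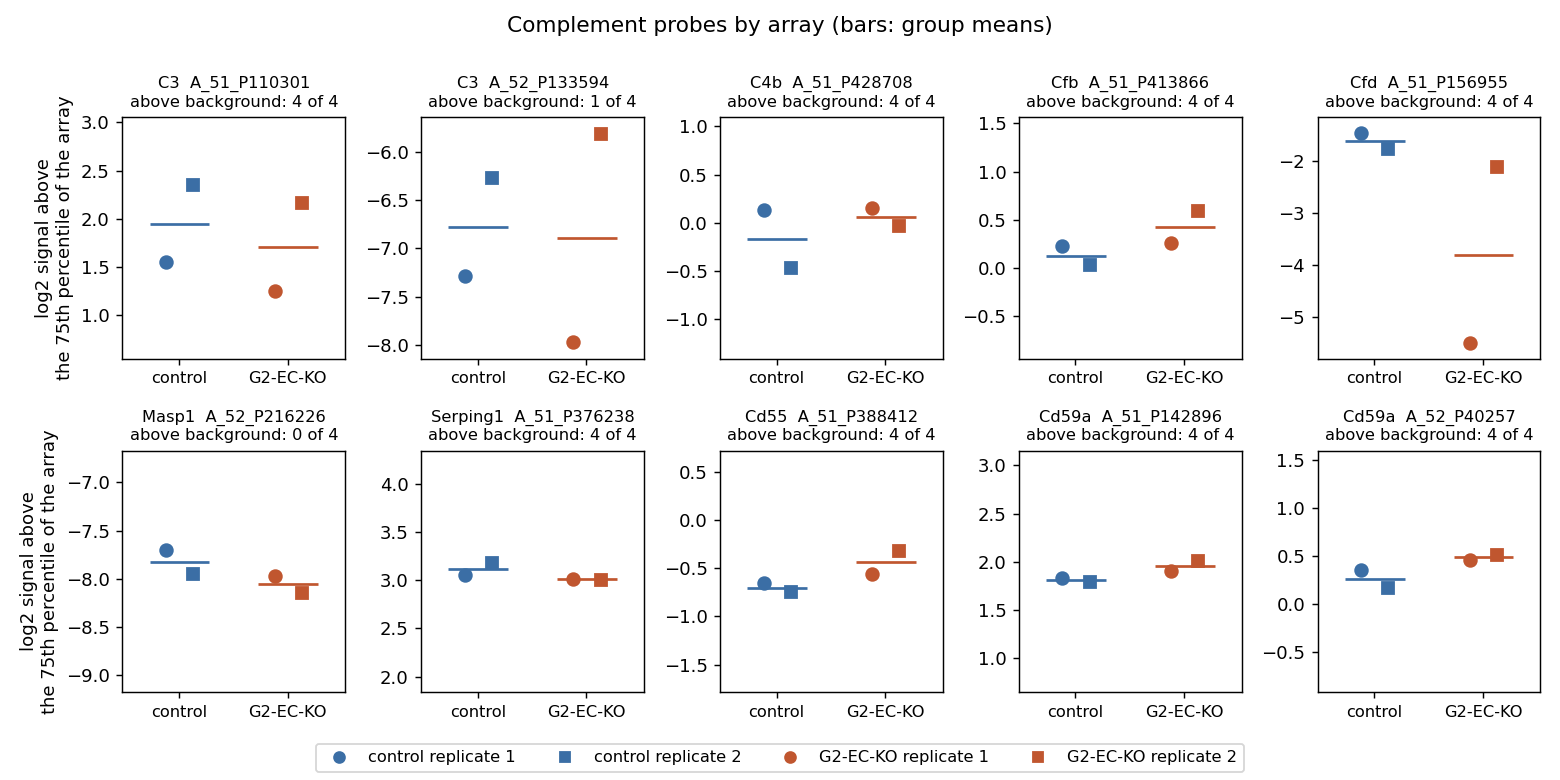
Log2 signal of each complement probe relative to the 75th percentile of its array (vertical axis, a range of its own in each panel), by group, with 1 point per array and a bar for the mean of each group. C3 is high on replicate 2 of both groups, Cfd is low on G2-EC-KO replicate 1 alone, and Serping1 and Cd59a probe A_51_P142896 vary little.

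C3, the component on which all routes converge, varied between arrays of the same group more than between the groups. Its probe A_51_P110301 read 1.55 and 2.35 on control replicates 1 and 2 and 1.26 and 2.16 on G2-EC-KO replicates 1 and 2. Replicate 2 was the higher array in each group, and the groups overlapped. The log2 change was -0.24 (SE 0.41, 95% confidence interval from -1.33 to 0.85, adjusted p = 0.83 by limma), an interval that runs from a fold of 0.398 to a fold of 1.81. Its sign turned without control replicate 2, to 0.16, and without G2-EC-KO replicate 1, to 0.22. Replicate 2 exceeded replicate 1 by 1.74-fold in control and 1.87-fold in G2-EC-KO.

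C3 is the only one of these genes whose probe was spotted repeatedly, with 10 spots on each array. After outlier spots were left out, 8 and 9 spots remained in control and 10 and 9 in G2-EC-KO. Their SD was between 0.045 and 0.072 on the log2 scale, while the array means spanned 1.09. The highest spot of control replicate 1 read 1.59 and the lowest spot of control replicate 2 read 2.27, and no spots overlapped between any of the 4 arrays. A range over arrays as wide as that of C3 occurred at 3.73% of the 25489 probes well above background on all 4 arrays, whose median range was 0.34.

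**Figure D2:**
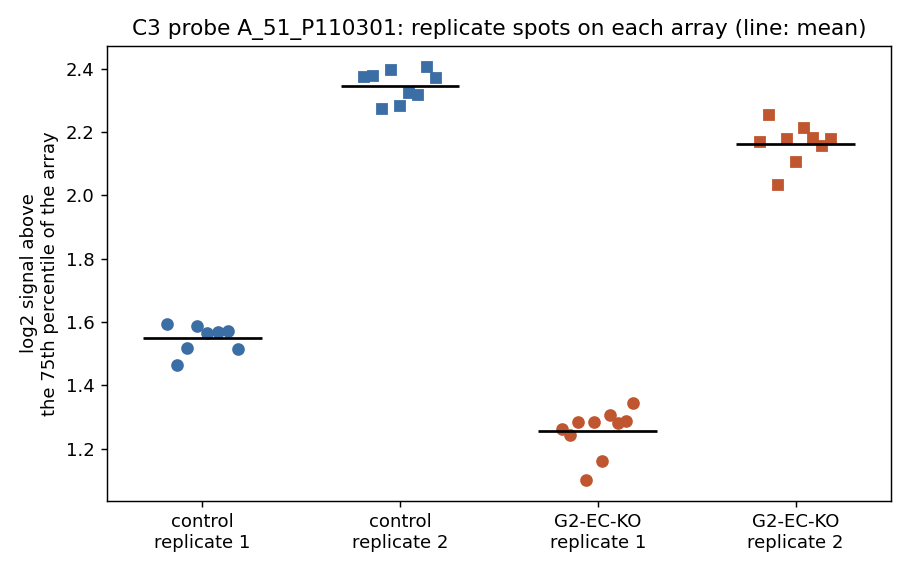
Log2 signal of the replicate spots of the C3 probe A_51_P110301 on each array, relative to the 75th percentile of the array, with a line at the mean. The spots of each array lie within a narrow band, and both replicate 2 arrays, with means of 2.35 and 2.16, lie above both replicate 1 arrays, with means of 1.55 and 1.26.

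A second C3 probe, A_52_P133594, was dim. It was well above background on G2-EC-KO replicate 2 alone, where it read -5.81, and read -7.29 and -6.27 in control and -7.97 on G2-EC-KO replicate 1. It was not tested. Its measured signals were also higher on replicate 2 in each group, but 3 of the 4 were not well above background.

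C4b, whose product is cleaved in the classical and lectin routes to build the enzyme that cuts C3, showed no difference beyond its spread. It read 0.13 and -0.47 in control and 0.15 and -0.028 in G2-EC-KO. The low array was control replicate 2, and the groups overlapped. On the log2 scale G2-EC-KO exceeded control by 0.23 (SE 0.23, 95% confidence interval from -0.38 to 0.84, adjusted p = 0.711 by limma). Without control replicate 2 the difference was -0.072. The neighbouring near-identical C4a, separated from C4b by 1 protein-coding gene on chromosome 17 in RefSeq, had a probe that was not well above background on any array. Probe sequences were not used here, so how far a probe can bind the transcript of a near-identical copy was not assessed.

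Cfb codes for factor B, the protease subunit of the alternative-route enzyme that cuts C3. It read 0.23 and 0.029 in control and 0.26 and 0.59 in G2-EC-KO. Both G2-EC-KO arrays lay above both control arrays, though G2-EC-KO replicate 1 exceeded control replicate 1 by little. G2-EC-KO exceeded control by a log2 change of 0.30 (SE 0.16, 95% confidence interval from -0.13 to 0.73, adjusted p = 0.571 by limma), or 1.23-fold. It stayed between 0.14 and 0.47 when any 1 array was left out. Its direct neighbour C2, which codes for the counterpart of factor B in the classical and lectin routes, read -1.51 on both control arrays and -1.07 and -1.27 in G2-EC-KO. The log2 change of C2 at this brighter probe was 0.34 (SE 0.12, adjusted p = 0.512 by limma). A second C2 probe, A_52_P428699, gave 0.24 (SE 0.17, adjusted p = 0.622 by limma), with groups that overlapped. Like Cfb, C2 did not pass the threshold.

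Cfd codes for factor D, also called adipsin, the protease that activates factor B and a known secreted product of fat cells. It had the largest difference of these genes, and 1 array made most of it. Cfd read -1.48 and -1.78 in control, -5.48 on G2-EC-KO replicate 1 and -2.12 on G2-EC-KO replicate 2. On the linear scale its processed signal was 507 and 418 in control, 28.8 on G2-EC-KO replicate 1 and 271 on G2-EC-KO replicate 2. The groups did not overlap, but G2-EC-KO replicate 2 lay close to control replicate 2, while replicate 1 lay 14.5-fold below the control mean. The log2 change was -2.18 (SE 1.12, 95% confidence interval from -5.14 to 0.79, adjusted p = 0.562 by limma). Without G2-EC-KO replicate 1 it was -0.50, and with replicate 2 of that group left out in its place it was -3.86, where limma gave an adjusted p of 0.194, the smallest for Cfd over these alternatives. With normexp background correction in place of the scanner software's the log2 change was -1.33 (adjusted p = 0.498 by limma).

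Among the 25489 probes well above background on all 4 arrays, that of Cfd had the widest range over arrays, 4.01 on the log2 scale or 16.1-fold, a description made after its values were seen. On G2-EC-KO replicate 1 it was still well above background, near the lowest signal so called on that array, -5.75. The probe has 1 spot on each array, and no spot of it was left out as an outlier, so its spot error was not measured. A search for genes with like values covered 13127 genes with a symbol whose brightest probe was well above background on all 4 arrays. None of these followed Cfd closely. Ctps2 had the smallest root mean square distance to the centred values of Cfd over the 4 arrays, at 1.14 log2 units. Car3, a carbonic anhydrase, followed at 1.18 and Tmem267 at 1.23. Genes that were dim on G2-EC-KO replicate 1, such as the adipocyte markers Cidec and Adipoq, were outside this search. Car3 read -2.77 and -3.78 in control and -4.50 and -3.85 in G2-EC-KO, so it too was lowest on G2-EC-KO replicate 1.

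Masp1 codes for a serine protease of the lectin route that circulates with mannose-binding lectin and ficolins. It was not well above background on any array, with measured values of -7.70 and -7.96 in control and -7.97 and -8.14 in G2-EC-KO. No fold is given, and the gene was not tested. At this signal neither its presence nor its absence in either group can be read.

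**Figure D3:**
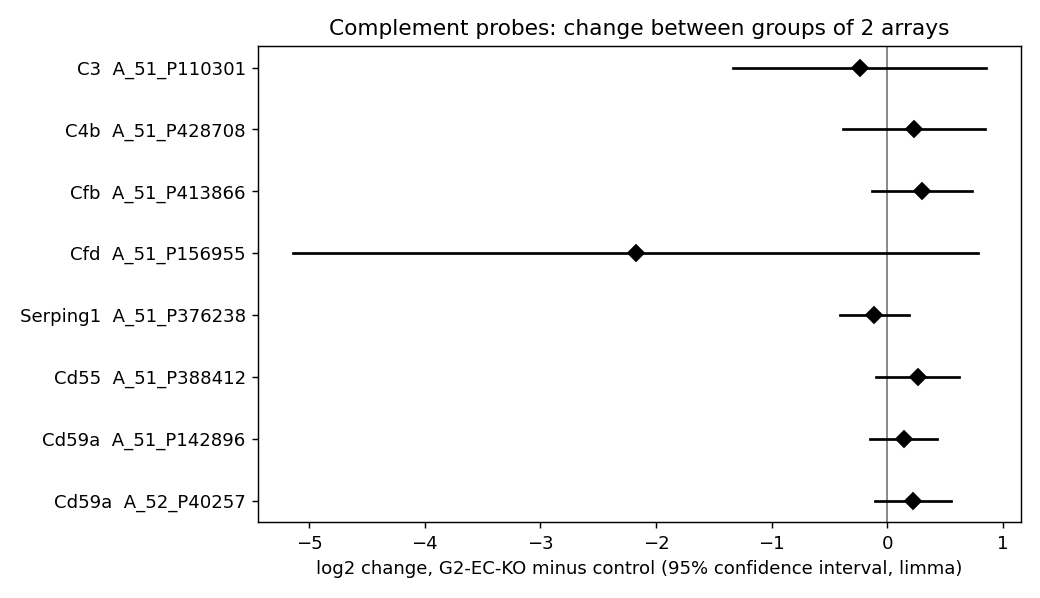
Log2 change, G2-EC-KO minus control, of the 8 complement probes tested (diamonds) with 95% confidence intervals from limma (lines). Every interval includes 0, and that of Cfd, from -5.14 to 0.79, is the widest.

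The 3 regulators had narrower ranges over the arrays than the 4 components tested. Serping1 codes for C1 inhibitor, which blocks the proteases of the classical and lectin routes. It read 3.06 and 3.18 in control and 3.02 and 3.0 in G2-EC-KO, with both G2-EC-KO arrays just below both control arrays. This gave a log2 change of -0.11 (SE 0.11, 95% confidence interval from -0.41 to 0.18, adjusted p = 0.709 by limma). It was -0.17 without control replicate 1 and -0.049 without control replicate 2. A range as wide as that of Serping1, 0.18, occurred at 81.8% of probes well above background on all 4 arrays, so it is among the steadier transcripts on these arrays. Its confidence interval runs from a fold of 0.754 to a fold of 1.14.

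Cd55 codes for decay-accelerating factor, a membrane protein that dismantles the enzymes that cut C3. It read -0.65 and -0.75 in control and -0.56 and -0.32 in G2-EC-KO. Both G2-EC-KO arrays were higher than both control arrays, with G2-EC-KO replicate 1 separated from control replicate 1 by less than its distance to G2-EC-KO replicate 2. The log2 change was 0.26 (SE 0.13, 95% confidence interval from -0.095 to 0.62, adjusted p = 0.562 by limma), or 1.20-fold. It was 0.14 without G2-EC-KO replicate 2 and 0.38 without G2-EC-KO replicate 1. Its direct neighbour on chromosome 1, the related Cd55b, was dim, at -5.92 and -5.23 in control and -5.40 and -4.89 in G2-EC-KO.

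Cd59a codes for a membrane-anchored inhibitor of the last step, the assembly of the pore. Its probe A_51_P142896 read 1.83 and 1.80 in control and 1.91 and 2.01 in G2-EC-KO, with a log2 change of 0.14 (SE 0.11, 95% confidence interval from -0.15 to 0.43, adjusted p = 0.639 by limma). Probe A_52_P40257 read 0.36 and 0.17 in control and 0.46 and 0.51 in G2-EC-KO, with a log2 change of 0.22 (SE 0.12, 95% confidence interval from -0.10 to 0.55, adjusted p = 0.574 by limma), which was 0.13 without control replicate 2. Both probes were higher on both G2-EC-KO arrays than on either control array, by 1.10-fold and 1.17-fold on average, and neither passed the threshold. The direct neighbour Cd59b, at its brighter probe, had a log2 change of 0.26 (SE 0.15, adjusted p = 0.575 by limma), and its other probe was not well above background on any array.

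For 4 of the 8 genes, C3, Cfd, Cd55 and Cd59a, RefSeq promoter windows of build GRCm38.p6 were at hand, each of 250 bases before the annotated start and 50 after it. Those of C3 and Cfd are shown because these genes differed most between arrays. They were searched on both strands for the word that GATA factors are known to bind, GATA preceded by A or T and followed by A or G, and on the given strand for TATAAA. Capitals mark a match. The first window lies at chr17:57228087-57228386 on the minus strand and the second at chr10:79890603-79890902 on the plus strand.
C3: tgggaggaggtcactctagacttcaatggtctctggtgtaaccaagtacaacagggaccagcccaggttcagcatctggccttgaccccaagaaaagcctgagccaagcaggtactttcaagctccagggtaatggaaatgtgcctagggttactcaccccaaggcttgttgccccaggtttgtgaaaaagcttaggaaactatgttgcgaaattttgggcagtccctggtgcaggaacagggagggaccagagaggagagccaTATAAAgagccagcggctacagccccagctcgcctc
Cfd: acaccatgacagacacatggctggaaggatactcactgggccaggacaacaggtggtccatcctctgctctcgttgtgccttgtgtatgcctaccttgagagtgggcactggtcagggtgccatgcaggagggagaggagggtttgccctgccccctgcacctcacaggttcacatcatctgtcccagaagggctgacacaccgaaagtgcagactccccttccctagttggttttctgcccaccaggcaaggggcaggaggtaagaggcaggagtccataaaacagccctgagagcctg
The C3 window holds 1 TATAAA, which begins 14 bases after the annotated start, as 8.32% of 32851 promoter windows hold this word somewhere. The Cfd, Cd55 and Cd59a windows hold none. None of the 4 windows holds the GATA word, which 29.8% of all windows do. This says only that these letters are not in these windows.

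Markers of other cell types that such a preparation can hold are given beside the complement genes. The adipocyte list had 11 of 12 genes with a probe, 6 of them well above background on all 4 arrays, and Retn and Lep on none. Its summed level, in multiples of the 75th percentile, was 31.8 and 30.5 in control and 28.0 and 26.9 in G2-EC-KO. This sum was carried mostly by Pnpla2, at 4.22 and 4.15 in control and 4.05 and 3.94 in G2-EC-KO. Dim markers such as Adipoq and Cidec weigh little in it. G2-EC-KO replicate 1, the array low in Cfd, was the lowest array for 5 of the 11 markers, or 4 of the 9 that were well above background on any array, and for 4 of 15 endothelial markers. Among the 6 bright adipocyte markers it was lowest for Lipe alone, at 2.46 and 2.55 in control and 2.05 and 2.06 in G2-EC-KO. Cidea, which codes for a lipid droplet protein, was higher in G2-EC-KO, at -1.85 and -1.80 in control and -1.60 and -1.48 in G2-EC-KO, and did not pass the threshold. The dimmer markers lowest on G2-EC-KO replicate 1 include Adipoq, the adiponectin gene, which read -4.62 and -5.24 in control, -6.31 on G2-EC-KO replicate 1 and -4.56 on G2-EC-KO replicate 2. Cidec, a lipid droplet gene, read -3.53 and -4.76 in control and -6.37 and -4.69 in G2-EC-KO. Adipoq and Cidec were not well above background on G2-EC-KO replicate 1. Plin1, well above background on 1 control array only, read -7.08 and -4.19 in control and -7.61 and -7.09 in G2-EC-KO. Retn, never well above background, read -5.63 and -6.03 in control and -7.80 and -6.85 in G2-EC-KO. Both were lowest on G2-EC-KO replicate 1, while Lep was lowest on G2-EC-KO replicate 2. Pnpla2, Lipe, Cidea, Adipoq, Cidec and Plin1 were singled out after their values were seen. Whether the signal of these markers, Pnpla2 included, came from fat cells was not tested. The part of adipocyte RNA in the Cfd values was not tested either.

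The mesothelial list, for the cells that cover the heart's surface, had 8 genes, of which 2 were well above background on all 4 arrays and Lrrn4, Upk1b and Bnc1 on none. Its summed level was 8.14 and 7.69 in control and 7.82 and 7.79 in G2-EC-KO, and was carried by Wt1, which read between 2.87 and 3.0. Wt1 ran in the order opposite to C3, with both replicate 2 arrays below both replicate 1 arrays, but over a range of only 0.13. Krt19, the other marker well above background on all 4 arrays, had neither order. It read -3.13 and -3.28 in control and -2.87 and -2.46 in G2-EC-KO. For 3 of the 8 markers, Msln, Upk3b and Lrrn4, both replicate 2 arrays lay above both replicate 1 arrays, as for C3, but Upk3b was well above background on 1 array and Lrrn4 on 0. The brightest of these 3 was Msln, the mesothelin gene, well above background on 3 arrays, at -6.59 and -4.08 in control and -4.70 and -2.27 in G2-EC-KO, singled out after its values were seen. This order was also seen in 5 of 15 endothelial and 3 of 12 fibroblast markers, and the opposite order in 7 of 11 granulocyte and lymphocyte markers. Whether the signal of Wt1, far brighter than the other markers, came from mesothelium was not tested. The part of mesothelial RNA in the C3 values was not tested either.

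**Figure D4:**
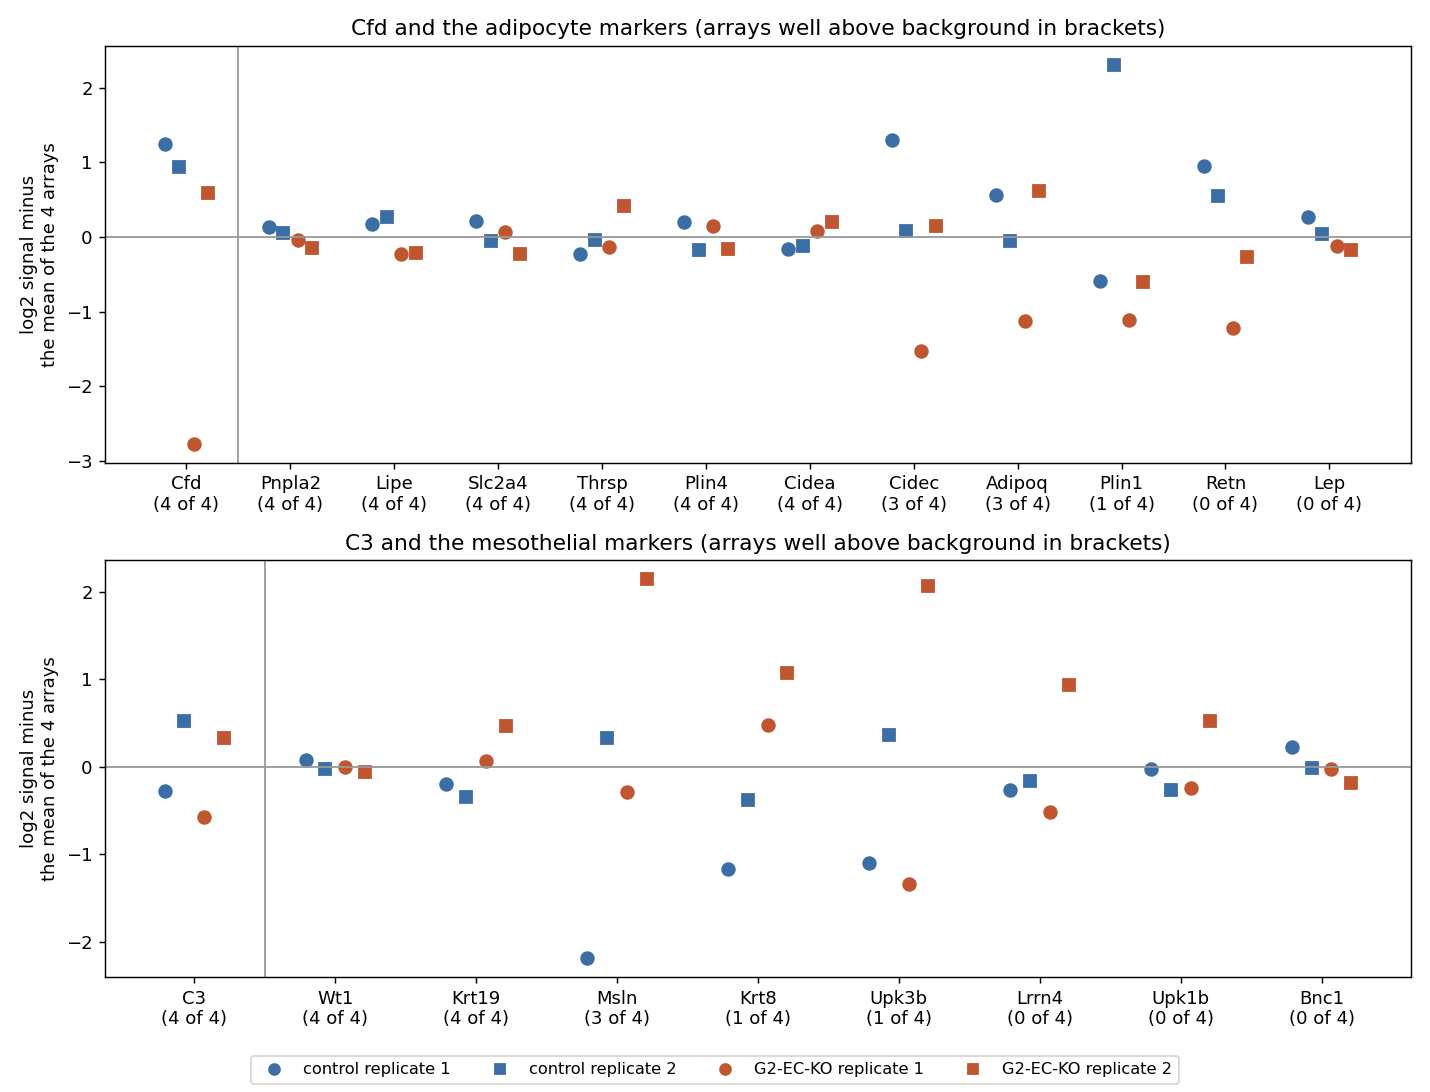
Log2 signal minus the mean of the 4 arrays (vertical axis), for Cfd with the adipocyte markers (upper panel) and C3 with the mesothelial markers (lower panel), with 1 point per array and the number of arrays well above background in brackets. Cfd, Cidec, Adipoq, Plin1, Retn and, narrowly, Lipe are lowest on G2-EC-KO replicate 1, while the other adipocyte markers are not. C3 and Msln are higher on both replicate 2 arrays, while Wt1 is lower on both, over a narrow range.

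The fibroblast list, of cells known to make C3, C4b and Serping1, had 12 of 12 genes well above background on all 4 arrays. In G2-EC-KO 11 of these read higher and 1 lower, at a median of 0.30 in log2 change, and 0 passed the threshold. Its summed level was 94.0 and 120 in control and 123 and 127 in G2-EC-KO, lowest on control replicate 1, an order that neither C3, C4b nor Serping1 shared. The macrophage and monocyte list had 11 of 11 genes higher with a median of 0.33, and summed levels of 7.65 and 9.97 in control and 10.8 and 9.38 in G2-EC-KO. The cardiomyocyte list had 12 of 12 higher with a median of 0.31, and summed levels of 101 and 103 in control and 106 and 145 in G2-EC-KO. The endothelial list had 8 higher and 7 lower with a median of 0.0066, the pericyte and smooth muscle list 2 and 8 with -0.13, and the granulocyte and lymphocyte list 4 and 5 with -0.037. The adipocyte list had 2 higher and 6 lower with a median of -0.18, and the mesothelial list 2 and 1 with 0.54. Their part in the complement values was not tested.

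Beyond these 8 genes, 47 of 48 other complement genes had a probe, and 32 of them were tested, at 37 probes. None passed the threshold (limma, smallest adjusted p = 0.387). At an unadjusted p under 0.05, 5 probes of 5 genes were higher and 1 lower, or 13.5% and 2.7% of the 37, against 4.9% and 4.73% of all probes tested. The count in both directions, 6, was 9 with the replicate number as a block, against 2698 of all probes. It was between 5 and 7 under the other alternatives that kept all 4 arrays, against 2515 to 2817 of all probes. The count depended on single arrays too. It rose without control replicate 2 and without G2-EC-KO replicate 2, where the count over all probes fell. Without G2-EC-KO replicate 1 both counts rose. At the brightest probe 18 genes were higher and 14 lower, with a median log2 change of 0.13. Control and G2-EC-KO were apart, with no overlap, at 15 of 37 probes, or 40.5%, beside the 46.4% of all probes. No member of this wider list therefore stands as a call, and the genes named are values only.

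**Figure D5:**
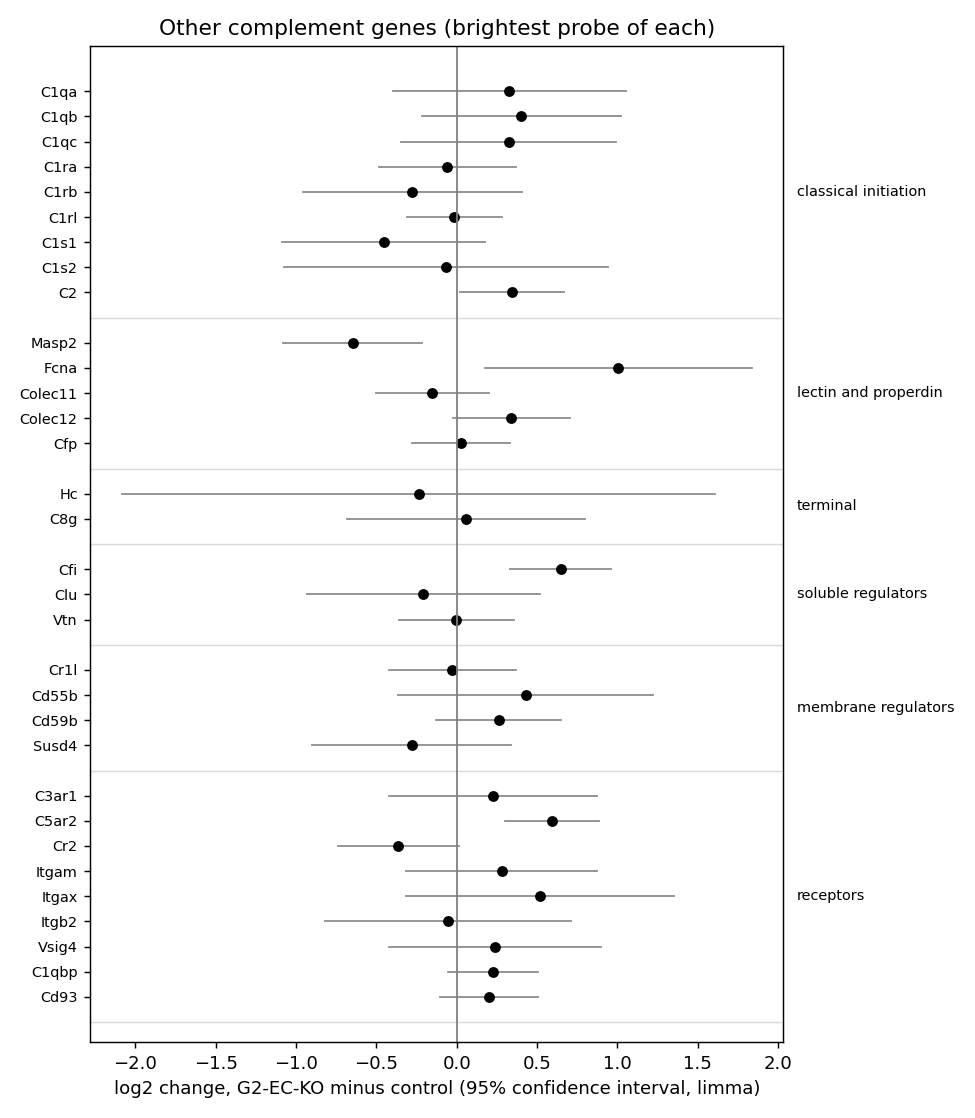
Log2 change, G2-EC-KO minus control, of the brightest probe of each of 32 other complement genes, grouped by role (right), with 95% confidence intervals from limma. Cfi, C5ar2, Fcna and C2 have intervals above 0 and Masp2 one below 0, none of them past the adjusted threshold.

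In the classical route, 4 of 9 tested genes were higher and 5 lower. C1s1, a protease of the first complex and the brightest of them, read 3.30 and 3.03 in control and 3.0 and 2.41 in G2-EC-KO, a log2 change of -0.45 (SE 0.24, adjusted p = 0.565 by limma). The 3 genes of the recognition molecule C1q, looked at after their values were seen, were lowest on control replicate 1. C1qa read -0.23 and 0.53 in control and 0.44 and 0.52 in G2-EC-KO, and C1qc read 0.023 and 0.71 in control and 0.61 and 0.77 in G2-EC-KO. C1qb read -0.52 and 0.10 in control and 0.13 and 0.26 in G2-EC-KO, and its groups alone did not overlap. The log2 changes of C1qa, C1qb and C1qc were 0.33, 0.40 and 0.32, and none passed the threshold. Macrophages are known to be a main source of C1q, and 10 of 11 macrophage and monocyte markers were also lowest on control replicate 1. So were 8 of 12 fibroblast and 6 of 15 endothelial markers. The part of macrophage RNA in the C1q values was not tested.

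Of the 5 tested genes of the lectin route and properdin, 3 were higher and 2 lower. Masp2, the partner protease of Masp1, was measured where Masp1 was not. It read -3.45 and -3.57 in control and -3.98 and -4.34 in G2-EC-KO, a log2 change of -0.65 (SE 0.16, 95% confidence interval from -1.08 to -0.22, adjusted p = 0.415 by limma). Of its other 2 probes, A_51_P448466 was well above background on 1 array and A_52_P569276 on 0. That 1 array was G2-EC-KO replicate 1, where A_51_P448466 read -5.53, not lower than control. It read -7.68 and -7.76 in control and -8.12 on G2-EC-KO replicate 2, and was not tested. The ficolin gene Fcna read -5.22 and -4.34 in control and -3.68 and -3.87 in G2-EC-KO, a log2 change of 1.0 (SE 0.31, adjusted p = 0.479 by limma). Colec12 had a log2 change of 0.34 (SE 0.14, adjusted p = 0.532 by limma) at its brighter probe. Its probe A_52_P527625 gave 0.50 (SE 0.15, adjusted p = 0.471 by limma), and the groups did not overlap at either probe. Fcna and Colec12 were singled out after their values were seen. Colec11, a collectin and the brightest probe of the role, had a log2 change of -0.15 (SE 0.13, adjusted p = 0.674 by limma).

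Genes of the terminal pore were dim. Of 6 with a probe, 2 were tested, each well above background on 3 of 4 arrays, and 3 were not well above background on any array. Hc, which codes for C5, had a log2 change of -0.24 (SE 0.70), and C8g one of 0.058 (SE 0.28). The groups overlapped at both.

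Of the 3 tested soluble regulators 1 was higher and 2 lower. Cfi, which codes for factor I, a protease that inactivates the bound fragments of C3 and C4, read -5.65 and -5.53 in control and -5.00 and -4.88 in G2-EC-KO. This is a log2 change of 0.65 (SE 0.12, 95% confidence interval from 0.33 to 0.96, adjusted p = 0.387 by limma), at a signal that was well above background on 1 of 2 control arrays. Clu, which codes for clusterin, a secreted chaperone that also binds terminal components, was the brightest of them, at 4.59 and 4.21 in control and 4.53 and 3.86 in G2-EC-KO. The groups overlapped, and its log2 change was -0.21 (SE 0.27, adjusted p = 0.777 by limma). Cfi was higher on both G2-EC-KO arrays than on either control array.

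Membrane regulators and receptors did not pass the threshold either. Cr1l, which codes for Crry, the rodent regulator of C3 cleavage, read 2.29 and 2.53 in control and 2.50 and 2.27 in G2-EC-KO, a log2 change of -0.028 (SE 0.15, adjusted p = 0.949 by limma). Of 9 tested receptor genes 7 were higher and 2 lower. C5ar2, a receptor for the C5a fragment, read -1.97 and -1.86 in control and -1.30 and -1.34 in G2-EC-KO, a log2 change of 0.60 (SE 0.11, 95% confidence interval from 0.30 to 0.89, adjusted p = 0.387 by limma). Cd93, an endothelial and myeloid surface glycoprotein once described as a C1q receptor, had a log2 change of 0.20 (SE 0.12, adjusted p = 0.577 by limma) at its brighter probe A_51_P238722. Its probe A_52_P607230 gave 0.038 (SE 0.12, adjusted p = 0.908 by limma), with groups that overlapped. C5ar2 was higher on both G2-EC-KO arrays than on either control array.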

How the data were processed

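The authors deposited scanner files of spot intensity values on a linear scale for 4 arrays, which per the file headers come from Agilent Feature Extraction 10.7.3.1 (10.5 in the submitters' processing notes), array design 014868 annotated on mm9, background-subtracted and detrended within each array. The deposited value table of intensity values equals median spot signal minus median local background plus 16 in every row and served as an alternative. The 4 arrays lay on 1 slide with the groups side by side, so position and group cannot be told apart. Control spots and outlier spots were left out. Processed signals were put on the log2 scale relative to their array's 75th percentile and averaged over the spots of a probe. Probes well above background on at least 2 of 4 arrays, whatever the group, were tested by limma 3.58.1 (R 4.3.3; lmFit and eBayes on group, two-sided, Benjamini-Hochberg over all probes tested); the script was tested on simulated data. The smallest p that an exact permutation test allows with 2 and 2 arrays is 0.333. RefSeq symbols (GRCm38.p6) matched 26933 of 41174 probes.

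The members and gene lists, which besides complement hold markers of endothelium, fibroblasts, macrophages, cardiomyocytes, adipocytes, pericytes, mesothelium, and granulocytes and lymphocytes, were chosen with earlier results of these data known. The rule for named genes took every probe of the 8 genes, and for each role of the wider list the gene with the smallest p and that with the highest mean signal. It also took markers not well above background on any array, the 3 genes most like the member with the widest range, and Gata2. Fcna, Colec12, the C1q genes, Adipoq, Cidec, Plin1, Lipe, Cidea, Pnpla2, Msln, Upk3b, Wt1 and Krt19 were added after their values were seen. So were the second probes of Cd93 and C2 and the neighbours Cd55b and C4a. Alternatives were other scalings, background correction, filters, a variance trend, a replicate block and leaving out each array. One gene of the wider complement list is not reported here and is in none of its counts. The files hold no mean spot signal, so normexp used the median.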

Additional observations from a re-analysis of the deposited data

How the results depend on the processing

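In each alternative run, 0 of the 8 tested complement probes, or of all 10 without a filter on dim probes, and 0 probes of the other complement genes passed the adjusted threshold, as with the settings reported. The median log2 change over the complement genes lay between 0.016, without a filter on dim probes, and 0.19, without G2-EC-KO replicate 1. Over all probes on the array 1 probe passed; 2 passed with normexp background correction, with quantile normalization and with median centring, 0 without a filter on dim probes, with a filter on all 4 arrays, with an intensity trend and with the replicate block, and 0 to 8 with any 1 array left out. The sign of the log2 change turned for C3, to 0.16 without control replicate 2 and 0.22 without G2-EC-KO replicate 1, in a range of -0.69 to 0.22, and for C4b, to -0.072 without control replicate 2, in a range of -0.072 to 0.53. No other probe of the 8 genes changed sign in any alternative. Cfd ranged from -3.86 to -0.50 with 1 array left out, and was -1.33 with normexp background correction. With 1 array left in a group, that array is assumed to vary like the pair of the other group. Nothing in the labels says that equal replicate numbers pair samples. The correlation of the differences between replicates 2 and 1 of the groups over probes was 0.068, a figure for all probes together that says little about single genes. For C3 the SE was 0.12 with the replicate block, against 0.41 without it (adjusted p = 0.547 with the block by limma). The block changed no call of a probe of the 8 genes (smallest adjusted p = 0.521 by limma). Dim signal limits Masp1, the second C3 probe and the terminal genes, and 2 arrays per group limit all values.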
